A study of Mus musculus with 16 samples.

Results

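The Bcl2 family of apoptosis regulators was described in mouse cerebellum by 10 member genes, 4 that restrain cell death (Bcl2, Bcl2l1, Bcl2l2 and Mcl1), 3 effectors (Bax, Bak1 and Bok) and 3 that carry the BH3 domain alone (Bid, Bad and Bcl2l11). Members were found as the non-control probes of the array whose transcript accession belongs to 1 of these genes, which gave 19 of 56605 probes, each printed as 1 spot. Of these, 17 probes passed the filter on dim signal, out of 37253 over the whole array, and each of the 10 genes kept at least 1. RNA of cerebellar cortex came from 16 mice of the strain B6;129S4-Atmtm1Bal/J, labelled male and 3.5 months old, with 4 mice in each of 4 groups. WT veh mice were wild-type littermates that drank water, and WT NR mice were wild-type littermates that drank water with nicotinamide riboside (NR), a precursor of NAD+, at 3.5 mg/ml for 2 months from the age of 6 weeks. Atm-/- veh and Atm-/- NR mice were homozygous for the targeted allele of Atm, the kinase lost in ataxia telangiectasia, and received the same 2 kinds of drinking water. The Atm loss is germline and present in every cell, and each array held 1 mouse.

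Bcl2 family proteins meet at the outer mitochondrial membrane. Effectors form pores there that release cytochrome c and start the caspase cascade, the anti-apoptotic members bind and hold the effectors and the BH3-only proteins, and BH3-only proteins carry the stress signal to both. Much of this control acts on the proteins, through binding, cleavage and phosphorylation, and an array sees the transcripts alone. In the postnatal cerebellum, the family is known for its part in the death of granule and Purkinje neurons.

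Arrays and labels were checked first. Slide 1 carried the 8 WT arrays and slide 2 the 8 Atm-/- arrays, so a difference between genotypes cannot be told apart from one between slides. On each slide the veh arrays lay in 1 row and the NR arrays in the other, so that treatment and row cannot be told apart either. Of the probes for Atm, A_66_P114939 was lower in Atm-/- veh than in WT veh by a log2 difference of -0.87 (SE 0.083, adjusted p = 0.000317), and A_52_P400509 by -0.35 (SE 0.11, adjusted p = 0.221). Where these probes lie relative to the altered exons was not checked. Y-linked genes were above background on 12 of the 16 arrays, while the labels give male for all. Between 34945 and 42559 probes per array were well above background, and each Atm-/- NR array (34945 to 37817) had fewer than each Atm-/- veh array (39134 to 41905). The granule cell list (10 of 10 genes) and the Purkinje cell list (8 of 8 genes) were above background on all 16 arrays. On WT veh 4 the choroid plexus list stood 3.51 log2 units above its mean over all arrays, and on Atm-/- veh 3 the red blood cell list stood 2.18 above.

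Promoter sequences are shown for the 3 members whose brightest probe did not overlap between Atm-/- veh and WT veh, as for 7.6% of all probes. None of the 3 passed the test in that comparison, and the choice serves only to set their sequences side by side. Each is the 250 bases before the RefSeq start in GRCm38.p6, 5′ to 3′ on the gene's strand, and capitals mark GC boxes, the letters GGGCGG or their complement CCGCCC. The windows lie at chr1:106714291-106714540 (minus strand) for Bcl2, chr17:27028628-27028877 (minus strand) for Bak1 and chr14:54883175-54883424 (plus strand) for Bcl2l2.
Bcl2: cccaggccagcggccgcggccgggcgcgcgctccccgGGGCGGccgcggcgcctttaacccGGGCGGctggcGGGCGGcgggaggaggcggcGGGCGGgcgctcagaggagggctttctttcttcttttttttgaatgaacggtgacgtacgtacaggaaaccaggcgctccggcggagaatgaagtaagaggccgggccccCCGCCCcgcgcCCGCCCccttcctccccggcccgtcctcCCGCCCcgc
Bak1: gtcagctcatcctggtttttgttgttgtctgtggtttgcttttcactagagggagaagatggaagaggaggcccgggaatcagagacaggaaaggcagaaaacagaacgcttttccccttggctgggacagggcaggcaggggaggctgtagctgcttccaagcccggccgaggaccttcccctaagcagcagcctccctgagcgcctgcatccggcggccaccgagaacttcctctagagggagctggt
Bcl2l2: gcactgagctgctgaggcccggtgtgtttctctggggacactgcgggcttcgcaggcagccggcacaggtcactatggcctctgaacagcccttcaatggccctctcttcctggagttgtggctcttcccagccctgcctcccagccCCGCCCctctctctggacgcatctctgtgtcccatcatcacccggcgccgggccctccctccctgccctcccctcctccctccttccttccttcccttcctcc
The Bcl2 window held 7 GC boxes, the Bcl2l2 window 1 and the Bak1 window 0, and 32.7% of 32851 promoters of that length held at least 1. G and C made up 74.8% of the Bcl2 window, 66% of the Bcl2l2 window and 58.4% of the Bak1 window. A GC box was present upstream of 8 of the 10 members, in at least 1 of their 14 windows in all. These matches describe the letters and not a bound factor.

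Bcl2 itself, the founding anti-apoptotic member, gave the single probe of the family that passed the test in any comparison. Signal is given as log2 of the quantile-normalized spot intensity, and differences are between group means on that scale. The brightest Bcl2 probe, A_52_P534870, measured 11.51, 11.45, 11.30 and 11.30 in WT veh, and 11.33, 11.71, 11.41 and 11.51 in WT NR. It measured 10.68, 10.96, 11.10 and 10.39 in Atm-/- veh, so that every array of this group lay below every array of the other 3 groups. In Atm-/- NR it measured 11.13, 11.37, 11.69 and 11.22, which overlapped with both WT groups. Group means ran in the order WT NR (11.49 ± 0.167), WT veh (11.39 ± 0.106), Atm-/- NR (11.35 ± 0.244) and Atm-/- veh (10.78 ± 0.314; SD, n = 4 each), and the first 3 neighbours differed by less than their spread.

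Between Atm-/- NR and Atm-/- veh, Bcl2 A_52_P534870 rose by 0.57 (SE 0.15, 95% interval 0.25 to 0.90), which is 1.49-fold, with an adjusted p of 0.0344. Over all probes, 9.04% were called in this comparison, beside 1 of 17 member probes, or 1 of the 16 that were above background on some array of every group. Between Atm-/- veh and WT veh the same probe differed by -0.61 (SE 0.15, 95% interval -0.94 to -0.28), with an adjusted p of 0.172, in a comparison where 0.0537% of all probes were called. These 2 comparisons share the Atm-/- veh arrays, so their opposite signs are not independent of each other. Between WT NR and WT veh the difference was 0.10 (95% interval -0.23 to 0.43, adjusted p = 0.926), and between Atm-/- NR and WT NR it was -0.14 (95% interval -0.47 to 0.19, adjusted p = 1). The difference between the NR effects in Atm-/- and in WT was 0.47 (SE 0.22, 95% interval 0.01 to 0.94) and did not pass the test (adjusted p = 0.839). Of the 16 fits that left out 1 array, 5 ended the call for the rise in Atm-/- mice, all among the 8 that left out an Atm-/- array. Those 5 fits were missing replicate 1 or 4 of Atm-/- veh or replicate 2, 3 or 4 of Atm-/- NR (adjusted p of 0.0518 to 0.106). A fit on the 8 Atm-/- arrays alone ended the call too (adjusted p = 0.0943), as did one on the 12 arrays that had Y-gene signal (adjusted p = 0.0665). In total, 7 of 24 alternatives ended the call, and in all 24 the sign was the same. Fits without a WT array, with the replicate number as a block or on the Atm-/- arrays alone keep the same difference, so their sign could not change. Over those 16 fits the difference ran from 0.44 to 0.68.

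Cell type marker lists were read beside this comparison. The granule cell list ran from 0.03 to 0.12 log2 units around its mean in Atm-/- veh and from -0.17 to 0.01 in Atm-/- NR. Of its 10 genes, 7 differed by less than 0 and 1 was called lower. The Purkinje cell list ran from -0.21 to 0.14 and from -0.01 to 0.15, with 1 of 8 genes called higher but 5 below 0. The list for endothelium and mural cells ran from -0.18 to 0.26 and from -0.27 to 0.01, with 5 of 7 genes below 0 and 1 called lower. Over all probes, 9.04% were called in this comparison. In the lists for Bergmann glia and astrocytes, oligodendrocytes, microglia, choroid plexus and red blood cells, 0 genes were called. All 5 red blood cell genes were below 0, with a median of -0.32. The part of these shifts, and of the smaller number of probes above background on Atm-/- NR arrays, in the Bcl2 difference was not tested. In bulk tissue, fewer cells of a type and less RNA per cell cannot be told apart. Without Atm-/- veh 3, the array with the high red blood cell list, the Bcl2 rise was 0.68 (adjusted p = 0.0278). That array also held the highest Bcl2 value of its group (11.10), so leaving it out could only enlarge the rise. The part of red blood cells was not tested.

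**Figure D1:**
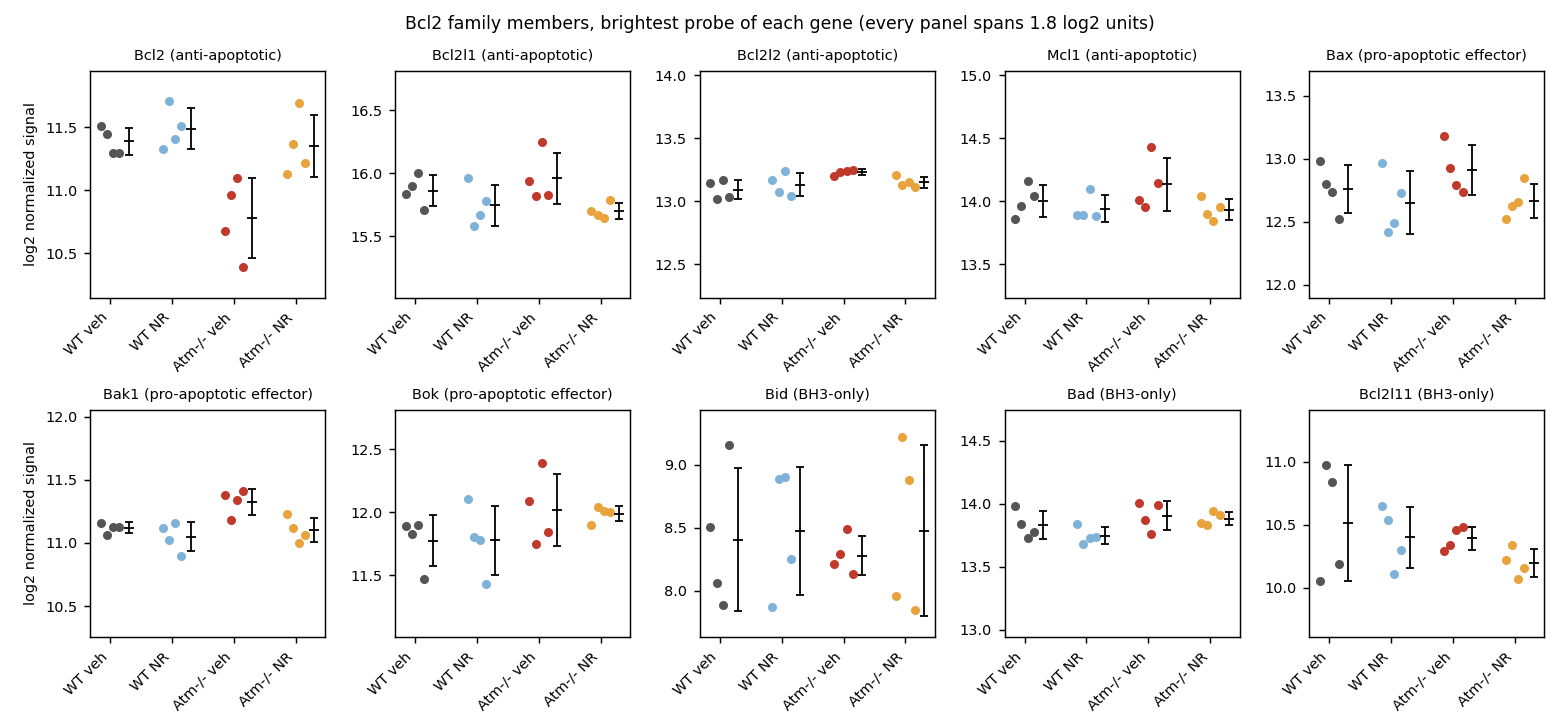
log2 normalized signal (vertical axes, each spanning 1.8 units) of the brightest probe of each of the 10 Bcl2 family members in the 4 groups. Points are single mice (n = 4 per group) and black bars are mean ± SD; Bcl2 is low on all Atm-/- veh arrays (10.39 to 11.10), and Bid spreads most within groups.

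The second Bcl2 probe did not follow the first. A_51_P380013 is assigned to another Bcl2 transcript, and measured 9.30, 9.24, 9.27 and 9.34 in WT veh, 9.23, 9.08, 9.21 and 9.19 in WT NR, 9.20, 9.01, 9.43 and 8.95 in Atm-/- veh, and 8.86, 9.09, 9.24 and 8.74 in Atm-/- NR. In Atm-/- mice it was lower with NR by a difference of -0.17 (SE 0.12, adjusted p = 0.374), the opposite sign to A_52_P534870, and the groups overlapped. Atm-/- veh differed from WT veh by -0.14 (adjusted p = 0.6). All 4 WT NR arrays lay below all 4 WT veh arrays, by -0.11 (SE 0.12, adjusted p = 0.875), in a comparison where 4.09% of all probes did not overlap in either direction. The NR result for Bcl2 thus rests on 1 of its 2 probes, and which transcripts each probe reads was not resolved here.

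**Figure D2:**
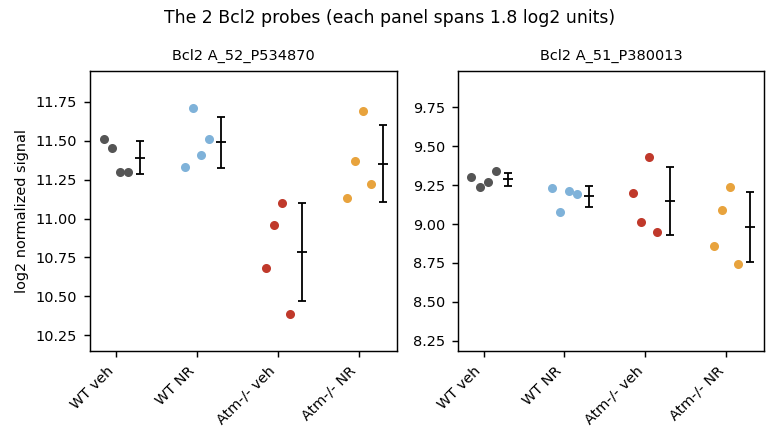
log2 normalized signal of both Bcl2 probes in the 4 groups (points, single mice; black bars, mean ± SD, n = 4; each panel spans 1.8 units). The left probe has a mean of 10.78 in Atm-/- veh and 11.35 in Atm-/- NR, while the right probe has 9.15 and 8.98.

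Of the other anti-apoptotic members, none passed the test in any comparison. Bcl2l1, which encodes Bcl-xL, had 5 kept probes. Its brightest probe, A_55_P1974877, measured 15.94, 15.82, 16.25 and 15.83 in Atm-/- veh and 15.70, 15.67, 15.65 and 15.79 in Atm-/- NR. All NR arrays thus lay below all veh arrays, by a difference of -0.25 (SE 0.11, 95% interval -0.48 to -0.02), without passing the test (adjusted p = 0.143), in a comparison where 20.2% of all probes did not overlap. The other 4 Bcl2l1 probes differed by -0.12 to -0.39 in the same direction, with overlapping groups and adjusted p of 0.155 to 0.628. Between Atm-/- veh and WT veh, 4 of the 5 probes were higher, by 0.10 to 0.41, and A_55_P2500448 differed by -0.04, with adjusted p of 0.359 to 0.929. These probes read 1 gene and are not independent of each other.

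Bcl2l2, which encodes Bcl-w, varied least within groups of all member probes (residual SD 0.0647, smaller than that of 98.5% of kept probes). It measured 13.14, 13.02, 13.17 and 13.03 in WT veh and 13.20, 13.23, 13.24 and 13.25 in Atm-/- veh. All Atm-/- veh arrays lay above all WT veh arrays, by 0.14 (SE 0.065), which did not pass the test (adjusted p = 0.333). In that comparison 7.6% of all probes did not overlap. With NR the Atm-/- arrays measured 13.21, 13.13, 13.15 and 13.11, a difference of -0.08 from Atm-/- veh (adjusted p = 0.443). Mcl1, the short-lived member that many neurons depend on, had group means between 13.93 and 14.13, and its largest difference, -0.20 for NR in Atm-/- mice (95% interval -0.43 to 0.02), did not pass the test (adjusted p = 0.232).

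Effectors moved by less than the anti-apoptotic Bcl2 probe and none passed the test. Bak1, a pore former that sits in the mitochondrial membrane, measured 11.16, 11.06, 11.13 and 11.13 in WT veh and 11.38, 11.18, 11.34 and 11.41 in Atm-/- veh. The groups did not overlap, as for 7.6% of all probes, and differed by 0.21 (SE 0.079, 95% interval 0.04 to 0.38), with an adjusted p of 0.271. In Atm-/- NR it measured 11.23, 11.12, 11.00 and 11.06, which overlapped with Atm-/- veh, and the difference of -0.22 (95% interval -0.39 to -0.06) had an adjusted p of 0.0865. That difference passed the test once, in the fit without Atm-/- veh 2 (-0.27, adjusted p = 0.0456), where 11.5% of all probes were called. Atm-/- veh 2 held the lowest Bak1 value of its group (11.18), so leaving it out could only enlarge the fall. The differences of 0.21 and -0.22 share the Atm-/- veh arrays, so their opposite signs are not independent of each other. Bak1 in WT NR measured 11.12, 11.02, 11.16 and 10.90, a difference from WT veh of -0.07 (adjusted p = 0.889).

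Bax, the cytosolic pore former and a known target of p53, had 2 probes with overlapping groups throughout. The brightest, A_55_P2137406, differed by 0.15 between Atm-/- veh and WT veh (95% interval -0.14 to 0.45, adjusted p = 0.634) and by -0.25 with NR in Atm-/- mice (95% interval -0.54 to 0.05, adjusted p = 0.264). A_51_P254541 differed by 0.02 and -0.03 in those comparisons (adjusted p = 0.936 and 0.87). Bok, a related effector, measured between 11.43 and 12.10 on the WT arrays and between 11.75 and 12.39 on the Atm-/- arrays, and over both treatments the genotypes differed by 0.23 (95% interval -0.01 to 0.46, adjusted p = 0.4). In Atm-/- mice Bok differed by -0.03 with NR (95% interval -0.36 to 0.30), the intervals of these effectors being too wide to show equal levels.

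BH3-only members showed no difference that passed the test. Bid, which links death receptors to mitochondria once caspase 8 cuts it, varied most of the brightest probes (residual SD 0.515, larger than that of most kept probes, 13% of which varied more). It measured 7.96, 9.22, 8.88 and 7.85 in Atm-/- NR, with 2 arrays high and 2 low, against 8.21, 8.29, 8.49 and 8.13 in Atm-/- veh, and the difference of 0.20 had an interval from -0.54 to 0.93 (adjusted p = 0.748). Bad, which growth factor signalling holds inactive by phosphorylation, had group means between 13.75 and 13.91. Its largest difference was 0.14 between Atm-/- NR and WT NR (95% interval -0.03 to 0.30, adjusted p = 1).

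Bcl2l11, which encodes Bim, had 4 probes, of which A_52_P158527 was the brightest. It measured 10.05, 10.97, 10.84 and 10.19 in WT veh, 10.65, 10.54, 10.11 and 10.30 in WT NR, 10.29, 10.34, 10.46 and 10.48 in Atm-/- veh, and 10.22, 10.34, 10.07 and 10.16 in Atm-/- NR. NR in Atm-/- mice gave a difference of -0.20 (95% interval -0.59 to 0.20, adjusted p = 0.521). The dim probe A_51_P484880 was well above background on 4 arrays of Atm-/- veh, 3 of WT veh, 2 of WT NR and 0 of Atm-/- NR, and its means of 4.48 to 4.83 in the other 3 groups lay below the bound of 5.10 set by the faintest above-background probes of the Atm-/- NR arrays, so no fold is given. A_52_P348214 was well above background on 0 of 16 arrays. A_55_P2504051 was above background on all 16 but had an outlier spot on Atm-/- NR 4 and was not fitted; its other arrays ran from 5.33 to 6.14.

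**Figure D3:**
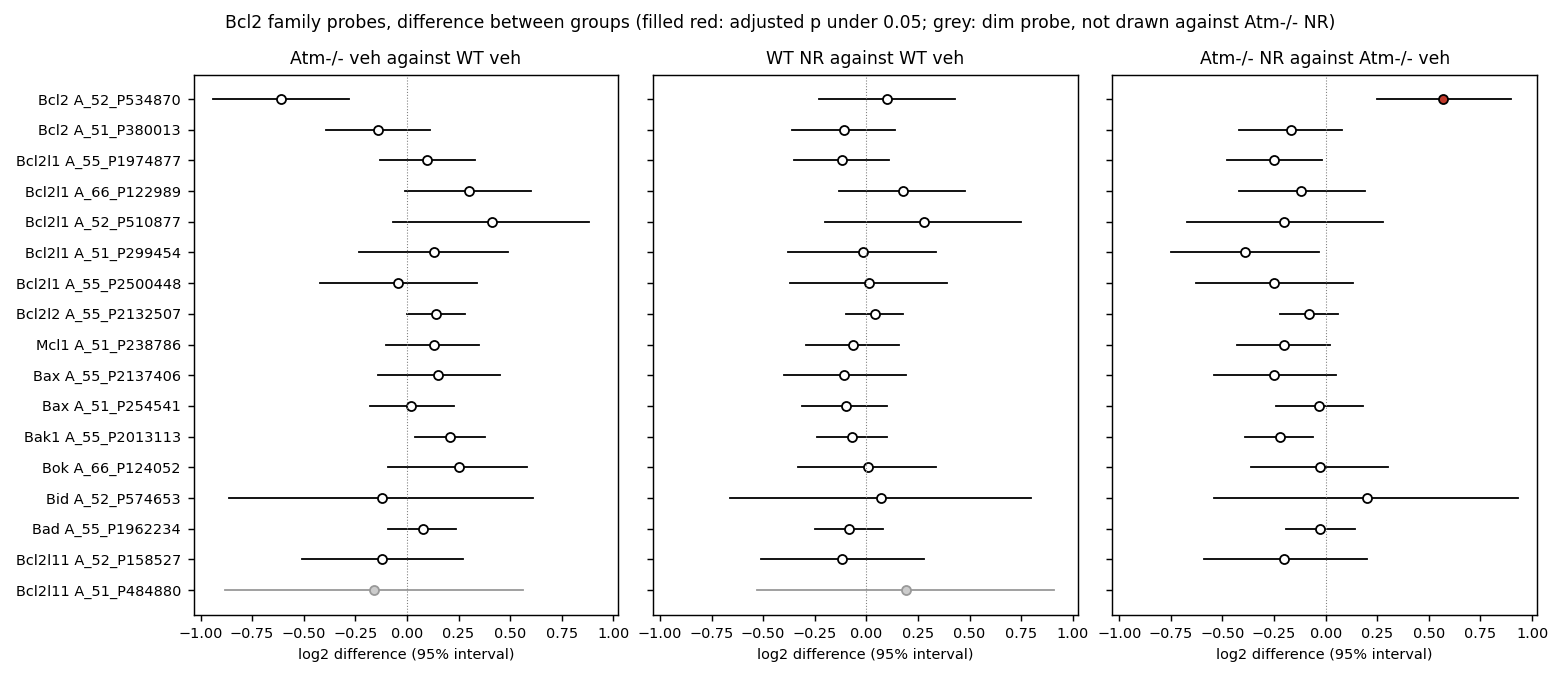
log2 difference with its 95% interval (horizontal axes) for each of the 17 kept member probes in 3 comparisons. The filled red point, Bcl2 A_52_P534870 for NR in Atm-/- mice (0.57), is the call at an adjusted p under 0.05, and the grey probe of Bcl2l11, not above background in Atm-/- NR, is left out of the panel with that group.

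Counts over the family leave out the dim Bcl2l11 A_51_P484880, which was not above background on any Atm-/- NR array, and so cover 16 probes, 5 of them of Bcl2l1. For Atm-/- veh against WT veh, 0 of 16 member probes were called by limma, 3 had an unadjusted p under 0.05 (14.6% of all probes did) and the same 3 had groups that did not overlap (7.6% of all probes), Bak1 and Bcl2l2 higher and Bcl2 A_52_P534870 lower. The median difference of these probes was 0.11, beside 0.00 over all probes, and 11 were above 0. The comparison of Atm-/- NR against Atm-/- veh shares the Atm-/- veh arrays with that one, so opposite signs in the 2 are not independent of each other. For Atm-/- NR against Atm-/- veh, 14 of 16 member probes were below 0 with a median of -0.18, beside 50.1% of all probes below 0 and a median of 0.00. Counted once per gene by the brightest probe, 8 of 10 were below 0 with a median of -0.14. Groups did not overlap for 2 of the 16 (20.2% of all probes), Bcl2 A_52_P534870 higher and Bcl2l1 A_55_P1974877 lower, and 4 had an unadjusted p under 0.05 (27.3% of all probes). The methods' t-test placed 3 under that value for Atm-/- veh against WT veh (11.5% of all probes) and 5 for Atm-/- NR against Atm-/- veh (27.9%).

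For WT NR against WT veh, 0 of 16 member probes were called (0% of all probes), 0 had an unadjusted p under 0.05 (7.62% of all probes) and the methods' t-test placed 1 under that value, Bcl2 A_51_P380013 (7.55% of all probes). For Atm-/- NR against WT NR, 0 of 16 were called (0.0537% of all probes), 0 had an unadjusted p under 0.05 (5.21%) and the methods' t-test placed 1 there, Bad (6.33%). For genotype over both treatments 0 were called (0.201% of all probes) and 2 had an unadjusted p under 0.05 (12.9%), Bcl2 A_52_P534870 with -0.37 (adjusted p = 0.194) and Bak1 with 0.13 (adjusted p = 0.345). For NR over both genotypes 0 were called (10.8% of all probes) and 3 had an unadjusted p under 0.05 (27.4%), among them Bcl2 A_52_P534870 with 0.34 (adjusted p = 0.0606). For the difference between the NR effects 0 were called (0% of all probes), and 1 had an unadjusted p under 0.05 (5.27%).

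The methods' rule on z-scores, applied to Atm-/- veh against WT veh, took in 1 member probe, Bcl2 A_52_P534870 (z-ratio -1.78), and 1.92% of all probes. The methods list the false discovery rate of that rule beside a normal test. Such a test on the z-scores was used here (0.00893 for this probe). With the rate of the methods' t-test (0.348), which that rule does not list, the probe would not have passed. For Atm-/- NR against Atm-/- veh it took in 0 member probes, with a z-ratio of 1.31 for that probe, and 3.87% of all probes.

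**Figure D4:**
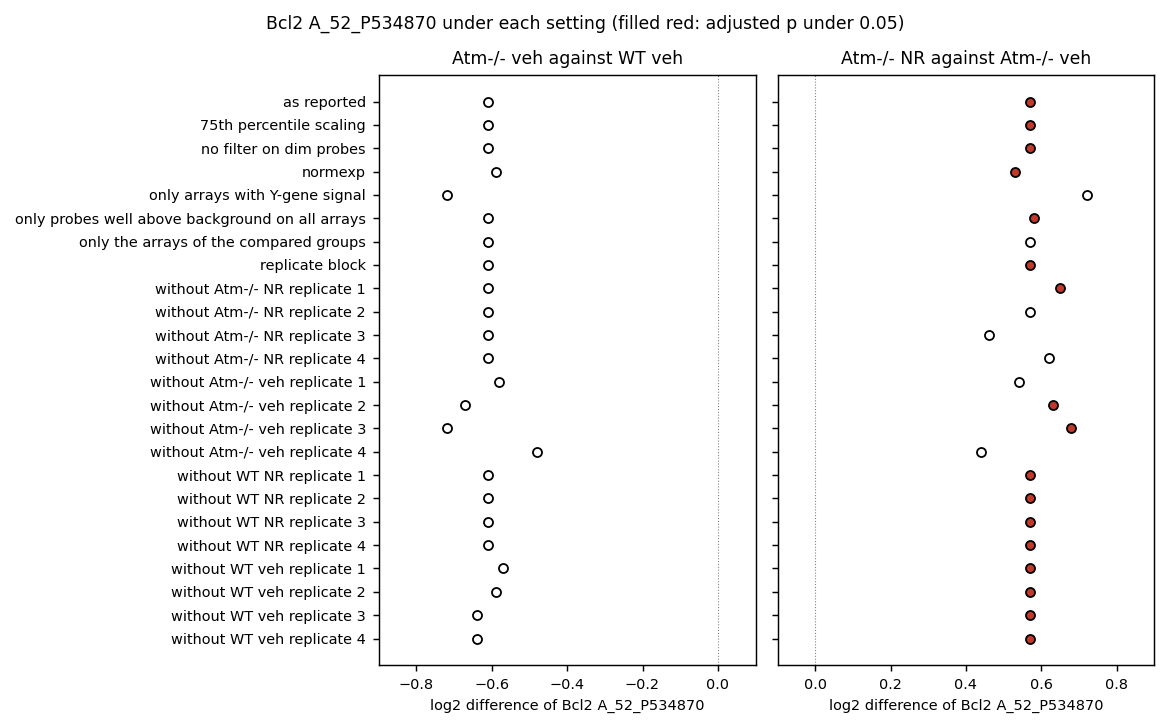
log2 difference of Bcl2 A_52_P534870 (horizontal axes) for Atm-/- veh against WT veh and for Atm-/- NR against Atm-/- veh, as reported and under each other processing or left-out array on the log2 scale. Filled red points have an adjusted p under 0.05; on the left the values run from -0.72 to -0.48 with 0 filled, and on the right from 0.44 to 0.72.

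Beyond the members, 75 other genes of the apoptosis pathway were followed by their brightest probe, of which 69 were measured. For Atm-/- NR against Atm-/- veh, 2 of the 69 rose (4.56% of all probes did) and 1 fell (4.48% of all probes did), and the median difference was -0.04. Mapk8, which encodes the stress kinase JNK1 that phosphorylates Bcl2 and Bcl2l11, rose by 0.38 (SE 0.081, adjusted p = 0.0165) from 12.75 ± 0.124 to 13.12 ± 0.0949 (SD, n = 4). Xiap, an inhibitor of caspases, rose by 0.36 (SE 0.091, adjusted p = 0.0286) from 13.94 ± 0.0889 to 14.30 ± 0.0299. Trp53, which encodes p53, an activator of Bax transcription, fell by 0.74 (SE 0.16, adjusted p = 0.0165) from 9.08 ± 0.21 to 8.34 ± 0.193. For each of these 3 probes the groups did not overlap, as for 20.2% of all probes. Over the list, 7 genes were higher and 7 lower without overlap.

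Other probes of these genes were weaker. Mapk8 A_55_P2808167 differed by 0.18 (adjusted p = 0.177) and A_55_P2020410 by -0.07 (adjusted p = 0.842), while Xiap A_51_P424893 differed by 0.12 (adjusted p = 0.726), and Trp53 had 1 kept probe. The calls for Mapk8 and Trp53 were lost without Atm-/- veh 1 or Atm-/- NR 3 (adjusted p of 0.054 to 0.0576). That for Xiap was lost in the fits missing replicate 1 or 4 of Atm-/- veh or replicate 2, 3 or 4 of Atm-/- NR (adjusted p of 0.0597 to 0.0883). With only the arrays with Y-gene signal, Mapk8 (adjusted p = 0.0801) and Xiap (0.119) lost their calls, while Trp53 kept its own (0.0422).

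By group, the call among 7 measured inhibitor of apoptosis genes was Xiap, and those among 15 regulators of family members were Mapk8 and Trp53. Of 14 other Bcl2 family and BH3-only genes, 12 caspase and apoptosome genes, 12 genes of mitochondrial channels and released factors, and 9 death receptors and adaptors, 0 were called in this comparison, with 2, 3, 5 and 0 at an unadjusted p under 0.05 (27.3% of all probes) and medians of -0.11, 0.08, -0.04 and 0.11. For NR over both genotypes, 3 of the 69 were called higher (5.42% of all probes) and 1 lower (5.41% of all probes). These were Xiap (0.25, adjusted p = 0.026), Mapk8 (0.25, adjusted p = 0.0174), Aifm1, the flavoprotein that leaves mitochondria in caspase-independent death (0.20, adjusted p = 0.0485), and Trp53 (-0.55, adjusted p = 0.0113). The call for Aifm1 was lost in 13 of the 16 fits that left out 1 array and with the replicate block (adjusted p = 0.0672), and it was made in 6 of 23 alternatives in all (adjusted p of up to 0.255). That for Xiap was lost in 4 of those 16 fits, without WT NR 3, Atm-/- veh 1, Atm-/- veh 4 or Atm-/- NR 3 (adjusted p of 0.053 to 0.0574), and with only the arrays with Y-gene signal (0.0932), while Mapk8 and Trp53 were called in all 23.

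In the other 5 comparisons 0 of 69 were called by limma, with 0 to 4 of them at an unadjusted p under 0.05, while 0% to 0.201% of all probes were called and 5.21% to 14.6% had such a p. The 2 largest differences of each comparison did not pass the test. For the difference between the NR effects they were Birc3, an inhibitor of apoptosis protein, at 0.89 (95% interval 0.15 to 1.63, adjusted p = 0.839) and Apaf1, the scaffold of the apoptosome, at 0.61 (95% interval -0.34 to 1.56, adjusted p = 0.844). For Atm-/- veh against WT veh they were Apaf1 at -0.57 (95% interval -1.24 to 0.10, adjusted p = 0.416) and Birc3 at -0.56 (95% interval -1.09 to -0.03, adjusted p = 0.319). For WT NR against WT veh they were Birc3 at -0.72 (adjusted p = 0.558) and Hrk, a BH3-only gene of neurons, at -0.68 (adjusted p = 0.65). For Atm-/- NR against WT NR they were Bcl2a1d, an anti-apoptotic family member of blood cells, at -0.70 (adjusted p = 0.994) and Casp12 at 0.46 (adjusted p = 0.98), both without overlap, as were 4% of all probes. For genotype over both treatments they were Bcl2a1d at -0.48 (95% interval -1.07 to 0.10, adjusted p = 0.471) and Casp12 at 0.45 (95% interval 0.08 to 0.81, adjusted p = 0.298). The dimmer Casp12 probe A_66_P112682 differed by 0.70 (adjusted p = 0.713) for Atm-/- NR against WT NR and by 0.60 (adjusted p = 0.148) for genotype. Birc3 groups did not overlap between WT NR and WT veh, as for 4.09% of all probes. The Birc3 probe was dim, with a mean log2 signal of 5.57, but above background on all 4 arrays of each group. On WT NR arrays it measured 5.05 to 5.44, around the bound of 5.10 given above for Atm-/- NR arrays.

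**Figure D5:**
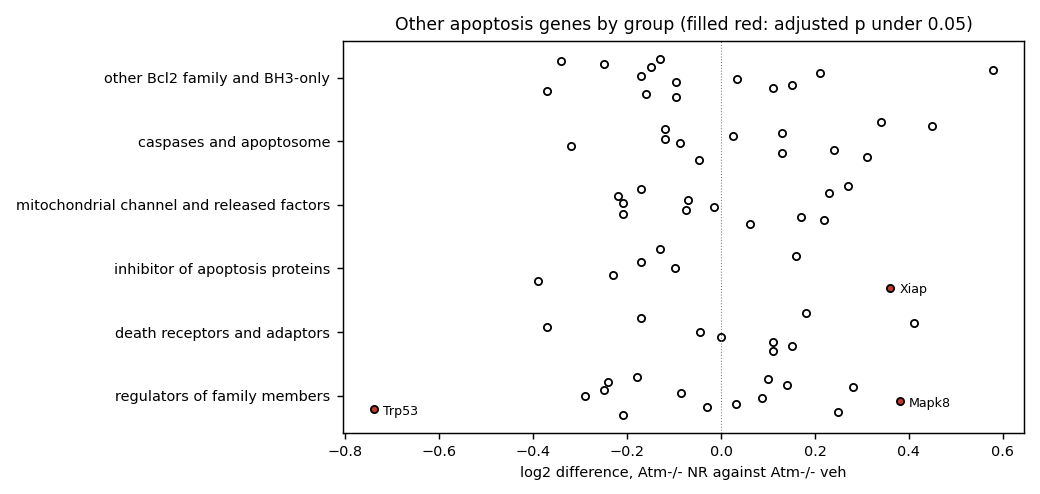
log2 difference between Atm-/- NR and Atm-/- veh (horizontal axis) for the brightest probe of each of 69 other apoptosis genes, arranged by group. Filled red points have an adjusted p under 0.05: Trp53 (-0.74), Xiap (0.36) and Mapk8 (0.38).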

How the data were processed

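RNA of cerebellar cortex from 16 mice was labelled with Cy3 and hybridised to 1-colour Agilent arrays, 4 per group as the labels give it. The authors deposited scanner output of Feature Extraction 12.0.3.1. Its intensity per spot is background-subtracted but not yet put on a common scale. They also deposited z-scores, each a score of a spot within its array. Samples with poor RNA integrity had been discarded per the study's methods. The 10 members and the gene lists were chosen with earlier results of these data known, so no count over them is independent evidence.

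Probes were named through accessions and RefSeq genes of GRCm38.p6 (32994 of 56605 probes), and promoter sequences are from RefSeq. All 10 members had a promoter entry. The files name mm9 for the array, so no coordinate was shared between builds. From the deposited intensity, log2 was taken of probes that the scanner software marked as above background throughout at least 1 group of 4. Signals were quantile normalized, outlier spots set aside and probes with a missing value dropped, leaving 37253. Differences were fitted with limma 3.58.1 in R 4.3.3 on 4 group means over 16 arrays (residual degrees of freedom, 12). P-values were adjusted over all kept probes by Benjamini-Hochberg, with a call under 0.05. Intervals are 95%. Where 1 probe stands for a gene it is the brightest, and all member probes are reported. Of the apoptosis list, called genes were named (up to the 4 largest rises and falls), and the 2 largest differences where none was called. The fit was tested on simulated data. Mice are the replicates, and their number limits the precision.

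Alternatives were 75th percentile scaling, normexp (offset 50), the deposited z-scores, no filter, only probes above background on all 16 arrays, each array left out, the replicate number as a block, only the arrays of the compared groups, only the 12 arrays with Y-gene signal, and the methods' t-test and rule on z-scores (z-ratio of at least 1.5, p of at most 0.05 and false discovery rate of at most 0.3 by a normal test, and p of at most 0.05 over all groups). A further condition of the methods' rule, an average signal above 0, was not applied, so the rule may take in more probes here. The labels give the sex as male for all mice, and no array was regrouped.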

Additional observations from a re-analysis of the deposited data

Results flagged for a closer look

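Over 68 groups of 4 arrays (17 member probes in 4 groups), 4 held an array whose gap to the nearest other array was large for the range of the group, while chance gives about 5% of groups. For Bcl2l1 A_66_P122989, WT veh 4 measured 9.98 beside 10.18 to 10.20 on the other WT veh arrays, and Atm-/- NR 1 measured 10.04 beside 10.38 to 10.44. For Bok A_66_P124052, WT veh 4 measured 11.47 beside 11.83 to 11.90. WT veh 4 is the array with the high choroid plexus list. For Mcl1 A_51_P238786, WT NR 3 measured 14.10 beside 13.88 to 13.89. Their cause was not tested.

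Bcl2l11 A_55_P2504051, which entered no comparison because 1 of its spots carried an outlier mark, was well above background on 16 of 16 arrays.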

How the results depend on the processing

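Of 2798 differences recomputed for the 17 member probes over 7 comparisons, 0 called values changed sign, and 120 values changed sign where neither value was called, none with a size over 0.28 as reported. A fit without an array from outside the compared groups could not change a difference, and so not its sign. The Bcl2 A_52_P534870 rise in Atm-/- NR against Atm-/- veh was called in 17 of 24 alternatives (adjusted p of 0.0266 to 0.106). This rise lost its call in 5 of the 8 fits without 1 Atm-/- array. It was not called with only the arrays of the compared groups (0.57, adjusted p = 0.0943) or only the arrays with Y-gene signal (0.72, adjusted p = 0.0665), and the fits without 1 array that lost it are named above; these fits hold fewer arrays. For NR over both genotypes it became a call with only probes above background on all arrays (0.34, adjusted p = 0.0496) and without Atm-/- veh 3 (0.39, adjusted p = 0.0359).

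In Atm-/- NR against Atm-/- veh, where 1 member probe was called, 2 were with 75th percentile scaling, or 1 without the dim Bcl2l11 A_51_P484880, whose level in Atm-/- NR was not above background. The count was 0 with only the arrays of the compared groups or with Y-gene signal, 0 to 2 with 1 array left out, 5 by the methods' t-test at its own threshold (27.9% of all probes), 0 by it after Benjamini-Hochberg and 0 by the methods' rule. The methods' t-test at its own threshold took 3 member probes in Atm-/- veh against WT veh (11.5% of all probes), where the methods' rule took 1 (1.92%). The t-test took 1 in Atm-/- NR against WT NR (6.33%) and 1 in WT NR against WT veh (7.55%). Limma called 0 in each of these comparisons. For NR over both genotypes, 0 to 1 were called with 1 array left out and 1 with only probes above background on all arrays.

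For the apoptosis list in Atm-/- NR against Atm-/- veh, 3 calls (9.04% of all probes) became 6 with 75th percentile scaling (10.9%) and 1 with only arrays with Y-gene signal (1.18%). With 1 array left out they were 0 to 7 (2.31% to 11.8%), 0 without Atm-/- veh 1 or Atm-/- NR 3 and 7 without WT veh 4 or Atm-/- veh 2. The methods' t-test gave 20 (27.9%), or 7 after Benjamini-Hochberg (3041 of 37253 probes), and the rule gave 1 (3.87%). For NR over both genotypes, 4 calls (10.8% of all probes) became 2 with only arrays with Y-gene signal (5%) and 2 to 6 with 1 array left out (6.08% to 12.6%; 2 without WT NR 3, Atm-/- veh 1, Atm-/- veh 4 or Atm-/- NR 3), and Aifm1 was called in 6 of 23 alternatives. The methods' t-test at its own threshold took 5 list genes in Atm-/- NR against WT NR (6.33% of all probes) and 2 in WT NR against WT veh (7.55%). It took 2 in Atm-/- veh against WT veh (11.5%), and limma called 0 in each of these. The cause of these changes was not tested.

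Arrays of the same number did not pair: their deviations correlated between -0.151 and 0.195, over 0.1 in 0 to 2 of 4 pairs a comparison, and 0 to 2 of 4 arrays correlated best with their own number. With the replicate number as a block, 1 member probe was again called in Atm-/- NR against Atm-/- veh, Bcl2 A_52_P534870 (adjusted p = 0.0331), and over all probes the calls went from 3366 to 3140. Signal near background leaves the dim Bcl2l11 probe with no measured difference against Atm-/- NR.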
